A study of Mus musculus with 23 samples.

Results

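F-box proteins are the subunits by which SCF ubiquitin ligases pick their substrates, and their mRNAs were measured here in primary mouse hippocampal neurons with and without deletion of Nedd8. The genes were chosen by symbol: the protein-coding genes named Fbxl, Fbxo or Fbxw with a number in the GRCm39 annotation, with at least 10 counts in at least 10 of the 23 libraries. Of 78 genes so named, 53 met this rule, namely 18 Fbxl genes, 27 Fbxo genes and 8 Fbxw genes. Of these 53, 52 passed the filter on low counts of the differential expression fit, which tested 14488 of 56941 listed genes, and Fbxo36 did not pass it.

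All cultures came from homozygous Nedd8cKO mice at postnatal day 0, in which loxP sites flank part of Nedd8. The line was made in FVB/N zygotes, while the study's reporting summary gives the animals as C57BL/6N. Neurons were infected 1 day after plating with lentivirus that encoded RFP alone (the control, 11 libraries) or CRE tagged with RFP (12 libraries) under the Synapsin1 promoter, so the floxed allele was shared by both groups and only the CRE group could recombine it. The labels give 12 days in culture and the study's methods 1 day more. Libraries are named by group, culture and library, as in CRE 1-3, and the first number is read here as 1 of 3 cultures, which the labels do not state in words. Each well was plated with the cells of a pair of hippocampi, and the sex of the animals was not checked. The Synapsin1 promoter is active in neurons, so other cells of a well would keep Nedd8.

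An SCF ligase is built on the scaffold Cul1, which binds the RING protein Rbx1 at one end and the adaptor Skp1 at the other. Skp1 holds an F-box protein by its F-box, and the rest of that protein recognises the substrate: Fbxl proteins carry leucine-rich repeats, Fbxw proteins carry WD40 repeats and Fbxo proteins carry other domains or none that is known. NEDD8, a small ubiquitin-like protein, is joined to the cullin and activates the ligase, and its removal lets Cand1 exchange one F-box protein for another. In neurons several F-box proteins are known for roles at synapses, in axons and in the turnover of glycoproteins.

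Nedd8 itself was lower in CRE-expressing neurons, at 5.9 to 17.9 CPM (counts scaled to a common library size with TMM factors) against 43.9 to 75.8 CPM in RFP-expressing neurons, with no overlap between groups. The log2 fold change was -2.44 (SE 0.17, n = 11 CRE and 10 RFP libraries, adjusted p = 6.98e-11). Here and throughout, the log2 fold change is CRE minus RFP from edgeR's quasi-likelihood test, its p-value is adjusted by the Benjamini-Hochberg method over all genes tested, and a gene with an adjusted p under 0.05 is called. The fit used 21 libraries with 7430401 to 17112815 counts, without CRE 3-3 (1546796 counts) and RFP 3-2, in which the ribosomal RNA gene Rn18s-rs5 took 24.2% of counts. Of the libraries kept, CRE 1-3 and RFP 2-4 stood apart: mitochondrial genes gave 0.261% and 3.43% of their counts, against 7.0 to 11.1% in the other 19, and the Spearman correlation across genes between GC content and deviation from the group was 0.745 and 0.506, against -0.142 to 0.275. Many results, though not all, are therefore also given for those 19 libraries (10 CRE, 9 RFP), which leave out all 4, a set chosen with earlier results of these data known.

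Among the F-box genes, 8 were called higher and 5 were called lower in CRE-expressing neurons, and the other 39 tested were not called. The 13 called are 25.0% of the 52 tested, beside 30.2% of all genes tested (16.4% higher, 13.8% lower). Fbxo32 alone passed a stricter pair of thresholds, an absolute log2 fold change over 1.3 with −log10 adjusted p over 6, which 1.39% of all genes passed. The groups of libraries did not overlap for 2 members, Fbxo32 and Fbxw7, against 4.72% of all genes. The median log2 fold change was 0.07 for the F-box genes and 0.02 for all genes tested, and the median absolute value was 0.28 and 0.32. The share called was near the background, and the results below concern single members. The role groups that follow hold few genes each, and their counts are to be read against the shares of all genes called.

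**Figure D1:**
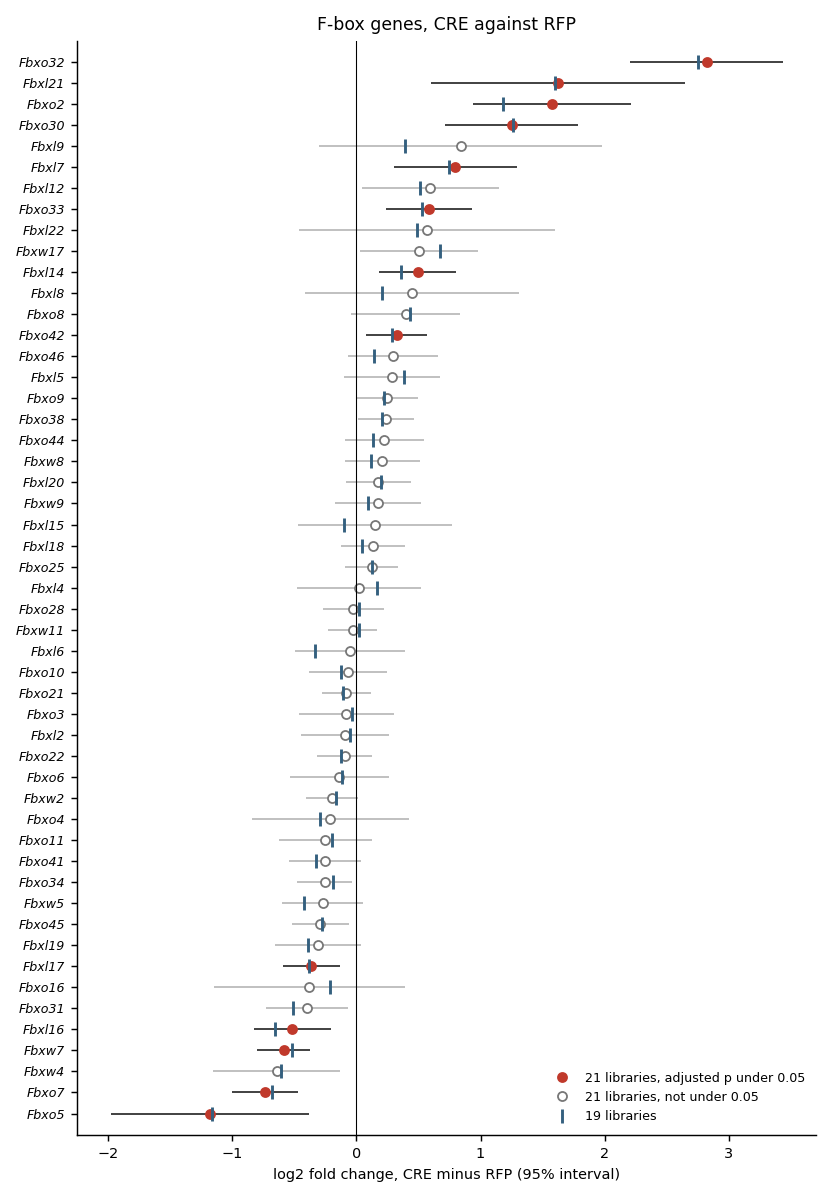
Log2 fold change (CRE minus RFP, x axis) of 51 of the 52 F-box genes tested, with its 95% interval; filled points were called in the 21 libraries and blue ticks give the value in 19 libraries. Fbxo32 lies farthest to the right at 2.82, and Fbxo5 farthest to the left at -1.18.

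The 3 subfamilies held called genes in both directions except the Fbxw genes. Of 18 Fbxl genes 3 were called higher (Fbxl7, Fbxl14, Fbxl21) and 2 lower (Fbxl16, Fbxl17). Of 26 Fbxo genes tested 5 were called higher (Fbxo32, Fbxo2, Fbxo30, Fbxo33, Fbxo42) and 2 lower (Fbxo7, Fbxo5). Of 8 Fbxw genes only Fbxw7 was called, and it was lower. The difference between groups had the same sign in all 3 cultures for 28 of the 52 genes, or 53.8%, beside 55.0% of all genes. All 13 called genes were among these 28. They were called from the same libraries, so their shared sign is no separate support.

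Levels per length spanned a wide range, given here in TPM, counts per base of exon scaled to the same sum in each library. In RFP-expressing neurons the median F-box gene had 23.7 TPM, 37 of 53 were over 10 TPM and 2 were under 1 TPM. Fbxl16, a brain-enriched member, was highest at 323 ± 62.3 TPM (SD, n = 10). It was followed by Fbxo2 at 152 ± 46.4 TPM, Fbxo41 at 126 TPM, Fbxo21 at 119 TPM, Fbxw5 at 103 TPM, Fbxo45 at 90.7 TPM and Fbxo11 at 90.5 TPM, and after Fbxl16 neighbours in this order differed by less than the larger of their SDs. In CRE-expressing neurons Fbxo2 had the highest mean, 466 ± 447 TPM (n = 11), ahead of Fbxl16 at 236 ± 95.4 TPM. Both means include CRE 1-3, which held the highest CRE value of each gene (716 CPM for Fbxo2, 640 CPM for Fbxl16). In the 19 libraries the CRE means were 136 ± 42.8 CPM for Fbxo2 and 259 ± 24.5 CPM for Fbxl16 (n = 10). CPM are not scaled to length and do not rank these genes. Across the 53 genes the levels in the 2 groups ranked alike (Spearman's rho 0.974, a description across genes, which share libraries). Fbxo32 was near the bottom in RFP-expressing neurons, at rank 51 with 1.01 ± 0.595 TPM, and had 7.58 ± 2.76 TPM in CRE-expressing neurons. These are bulk samples, so fewer cells of a type and less RNA per cell cannot be told apart in any of the values that follow.

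**Figure D2:**
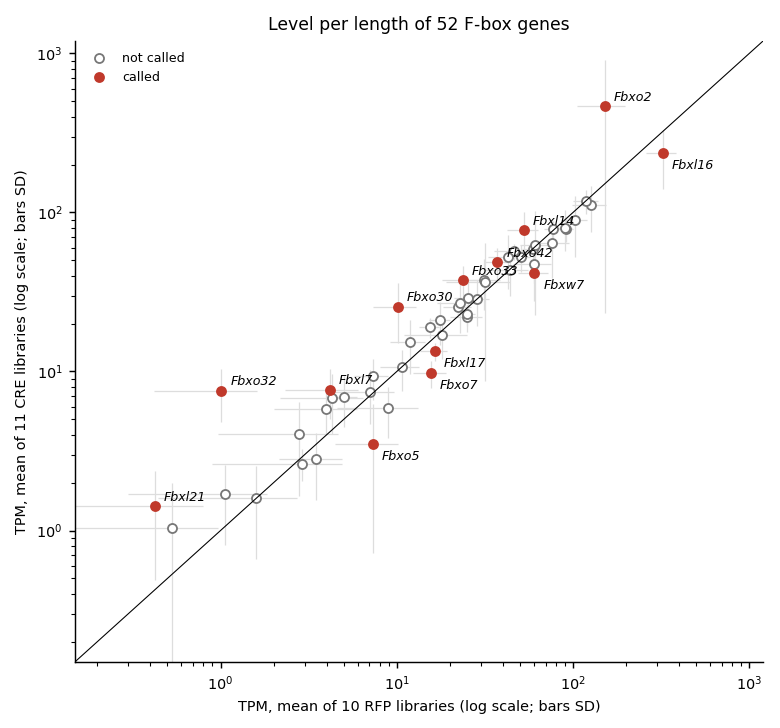
Mean level of 52 of the 53 F-box genes in CRE-expressing (y axis) against RFP-expressing neurons (x axis), in TPM on log axes, with bars for the SD, cut short at the lower end where the SD approaches the mean. Fbxo32 (1.01 against 7.58 TPM) and Fbxo2 (152 against 466 TPM) stand above the diagonal. The CRE mean of Fbxo2 includes CRE 1-3, its highest CRE library at 716 CPM.

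The F-box genes that did not meet the rule had few counts or none. Of these 25 genes, 15 are Fbxw genes, and 14 of them lie in one cluster on chromosome 9 (chr9:108968515-109619738). No count was found for 12 of the 25 in any library, and the highest total over the 23 libraries was 204.

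The stretch before the transcription start is shown for 4 members, the called genes with the largest rises and falls among those whose window held no annotated UTR. Fbxl21 and Fbxo2 rose more than Fbxo30 (log2 fold changes of 1.62 and 1.57 against 1.25), but their windows held a UTR. Each is the 200 bases before the start of the canonical transcript in GRCm39, 5′ to 3′ on the strand of the gene, with motif matches in capitals. They are Fbxo32 (chr15:58078742-58078941, minus strand), Fbxo30 (chr10:11156570-11156769, plus strand), Fbxo5 (chr10:5755914-5756113, minus strand) and Fbxo7 (chr10:85857490-85857689, plus strand).
Fbxo32: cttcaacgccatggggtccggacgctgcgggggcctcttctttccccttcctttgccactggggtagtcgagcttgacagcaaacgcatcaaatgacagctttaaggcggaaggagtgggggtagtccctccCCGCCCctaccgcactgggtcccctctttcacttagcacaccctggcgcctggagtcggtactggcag
Fbxo30: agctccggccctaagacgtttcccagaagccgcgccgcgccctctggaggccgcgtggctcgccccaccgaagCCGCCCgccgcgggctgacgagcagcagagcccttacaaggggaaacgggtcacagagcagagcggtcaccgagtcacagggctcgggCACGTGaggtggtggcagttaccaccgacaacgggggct
Fbxo5: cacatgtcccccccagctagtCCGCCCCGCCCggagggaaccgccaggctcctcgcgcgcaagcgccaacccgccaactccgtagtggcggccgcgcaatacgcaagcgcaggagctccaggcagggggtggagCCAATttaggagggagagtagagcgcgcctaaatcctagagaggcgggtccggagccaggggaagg
Fbxo7: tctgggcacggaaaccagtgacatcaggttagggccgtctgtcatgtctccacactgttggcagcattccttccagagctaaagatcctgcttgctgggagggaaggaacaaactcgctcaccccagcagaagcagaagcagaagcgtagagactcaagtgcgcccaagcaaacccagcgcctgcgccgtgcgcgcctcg
The capitals mark a GC box (GGGCGG on either strand) 68 bases before the start of Fbxo32, an E-box (CACGTG) at 39 and a GC box at 127 bases in Fbxo30, and a CCAAT box at 66 and overlapping GC boxes at 174 and 179 bases in Fbxo5, while none of the 6 motifs searched occurred in the Fbxo7 window. Exons of non-coding genes on the opposite strand cover part of the Fbxo30 and Fbxo7 windows (4930432B10Rik and A230060F14Rik).

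Over all 53 members the 200-base windows were rich in CpG, with a median of 13 CpG beside 7 in the windows of all 21770 protein-coding genes. The members had met a rule on counts and the other genes were taken whatever their counts, so the sets are unlike. The differences in this paragraph cannot be read as particular to F-box genes. The GC box occurred in 32 of 53 windows (60.4%) and in 34.8% of all windows, the CCAAT box (CCAAT) in 10 (18.9%) and 32.3%, and the E-box in 5 (9.43%) and 5.43%. The E-box windows were those of Fbxl2, Fbxl5, Fbxo25, Fbxo30 and Fbxo33, of which Fbxo30 and Fbxo33 were called, both higher. The core of the FOXO site (GTAAACA) occurred in 1 window and in 2.08% of all, the core of the antioxidant response element (TGACNNNGC) in 4 (7.55%) and 8.14%, and the cyclic AMP response element (TGACGTCA) in 2, those of Fbxo33 and Fbxw9, and in 1.59%. Both strands were searched for each motif. A match is a match of letters, and none of these shares was tested.

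Among the members known from muscle atrophy and growth, 2 of 3 tested rose, beside 16.4% of all genes. Fbxo32 (atrogin-1), a ligase subunit induced in wasting muscle, had 0.906 to 4.63 CPM with a median of 1.71 in RFP-expressing neurons, and 8.06 to 27.0 CPM with a median of 16.1 in CRE-expressing neurons. Every CRE library was above every RFP library, the left-out CRE 3-3 (19.04 CPM) included. Its log2 fold change was 2.82 (SE 0.30, 95% interval 2.21 to 3.43, adjusted p = 7.93e-08), a 7.06-fold rise, with differences of 2.60, 2.91 and 2.25 in the 3 cultures. In the 19 libraries it was 2.75.

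Fbxo30 (MUSA1), likewise known from atrophy and opposed by BMP signalling in muscle, had 5.71 to 22.4 CPM (median 17.5) in RFP-expressing and 6.25 to 69.0 CPM (median 38.5) in CRE-expressing neurons. The lowest value of each group came from a library that stood apart, RFP 2-4 and CRE 1-3, and the other 10 CRE libraries were above every RFP library. Fbxo30 had a log2 fold change of 1.25 (SE 0.26, adjusted p = 0.000628), and in the 19 libraries it was 1.26 (adjusted p = 1.96e-07) with no overlap. Fbxo25, the closest relative of Fbxo32, had 50.8 ± 8.53 CPM in RFP-expressing (n = 10) and 56.0 ± 5.33 CPM in CRE-expressing neurons (n = 11), a log2 fold change of 0.12 (95% interval -0.09 to 0.34, adjusted p = 0.419). Fbxo40, a muscle gene, was too low to be tested.

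**Figure D3:**
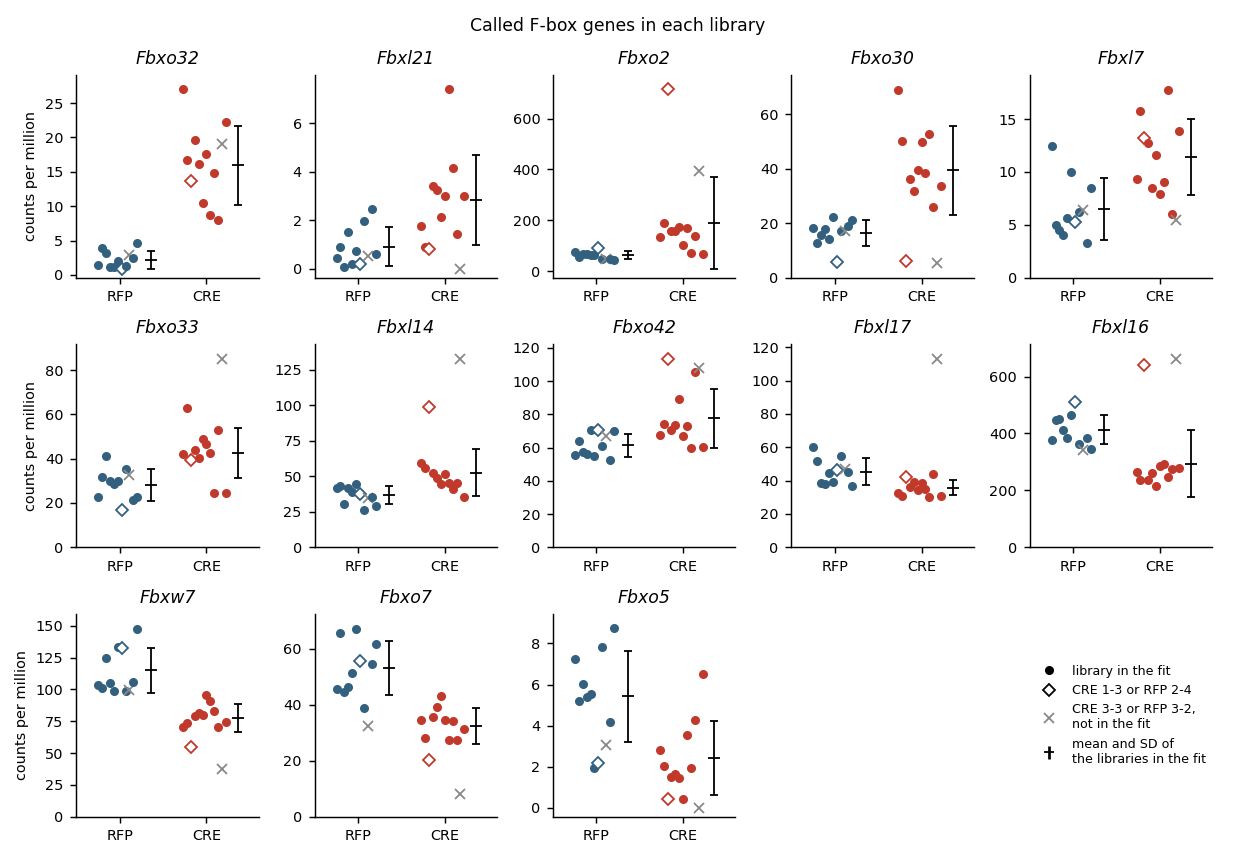
CPM (linear axes) of the 13 called F-box genes in each RFP and CRE library, with mean and SD; diamonds mark CRE 1-3 and RFP 2-4, and crosses mark CRE 3-3 and RFP 3-2, which are not in the fit. The groups are apart for Fbxo32 and Fbxw7, and CRE 1-3 lies far above the other CRE libraries for Fbxo2 (716 CPM) and Fbxl16 (640 CPM).

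Of the lectin-type members, some of which bind N-glycans and take misfolded glycoproteins to degradation, only Fbxo2 was called among the 3 tested. Fbxo2, the brain-enriched glycoprotein receptor also counted here with the synaptic members, had 44.8 to 92.2 CPM (median 63.7) in RFP-expressing and 67.3 to 716 CPM (median 157) in CRE-expressing neurons. In 9 of 11 CRE libraries it was above every RFP library, and the value of 716 CPM was that of CRE 1-3. For Fbxo2 the log2 fold change was 1.57 (SE 0.31, adjusted p = 0.00033), or 2.98-fold, and in the 19 libraries it was 1.18 (SE 0.18, adjusted p = 1.88e-05), where the means were 59.2 ± 11 CPM (n = 9) and 136 ± 42.8 CPM (n = 10).

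The neighbours of Fbxo2 on chromosome 4 were not called. Fbxo6 had 11.1 ± 3.40 CPM in RFP-expressing and 10.3 ± 3.04 CPM in CRE-expressing neurons, a log2 fold change of -0.14 (95% interval -0.53 to 0.26, adjusted p = 0.646). Fbxo44 had 62.1 ± 9.82 and 73.6 ± 27.2 CPM, a log2 fold change of 0.23 (95% interval -0.09 to 0.55, adjusted p = 0.296). The 3 genes form a cluster in which Fbxo44 and Fbxo2 are transcribed in opposite directions and overlap by 410 bases, and 305 bases separate Fbxo6 from Fbxo44. Fbxo17 (means of 0.30 and 1.18 CPM in RFP and CRE) and Fbxo27 (0.24 and 1.15 CPM), the remaining lectin-type genes, did not meet the rule.

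In the cell cycle group 2 of 6 genes were called, both lower, beside 13.8% of all genes called lower. Fbxw7, which targets cyclin E, MYC, JUN and NOTCH, had 98.5 to 148 CPM (median 105) in RFP-expressing and 55.0 to 95.4 CPM (median 78.9) in CRE-expressing neurons. Every CRE library was below every RFP library. Fbxw7 had a log2 fold change of -0.59 (SE 0.10, adjusted p = 0.000114), with -0.66, -0.42 and -0.61 in the 3 cultures and -0.52 in the 19 libraries.

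Fbxo5 (EMI1), an inhibitor of the anaphase-promoting complex that is used in dividing cells, had 1.96 to 8.75 CPM (median 5.47) in RFP-expressing and 0.407 to 6.51 CPM (median 1.93) in CRE-expressing neurons. The groups overlapped, with 6 of 11 CRE libraries below every RFP library. For Fbxo5 the log2 fold change was -1.18 (SE 0.39, adjusted p = 0.0226), and -1.16 in the 19 libraries. Markers of dividing cells fell with it: 9 of 10 (Mki67, Top2a and others) were called lower and none higher (10 lower in the 19 libraries), and their summed level was 201 to 327 CPM in RFP and 8.42 to 210 CPM in CRE libraries. Their part in the fall of Fbxo5 was not tested.

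The remaining members of the cell cycle group were not called. Fbxw11 (β-TrCP2), a receptor for phosphorylated β-catenin and IκB also counted with the clock genes, was at 177 ± 17.3 CPM in RFP-expressing and 175 ± 25.5 CPM in CRE-expressing neurons (log2 fold change -0.03, 95% interval -0.23 to 0.17, adjusted p = 0.856). Fbxo31, linked to cyclin D1 turnover, had a log2 fold change of -0.40 (SE 0.16, adjusted p = 0.0643), and in the 19 libraries of -0.51 (adjusted p = 1.72e-05). Its highest values were those of CRE 1-3 (190 CPM) and RFP 2-4 (159 CPM), and the log2 fold change was -0.58 without CRE 1-3 alone (adjusted p = 1.93e-05) and -0.31 without RFP 2-4 alone (adjusted p = 0.148). Fbxo4, also linked to cyclin D1, had -0.21 (SE 0.31, adjusted p = 0.662), and Fbxl8 had 0.45 (SE 0.42, adjusted p = 0.461).

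In the list of synapse and axon members, to which the brain-enriched Fbxl16 was assigned, Fbxl16 fell and Fbxo2 rose, and the other 4 were not called. Fbxl16 had 345 to 510 CPM (median 398) in RFP-expressing and 216 to 640 CPM (median 263) in CRE-expressing neurons. All CRE libraries except CRE 1-3, the one at 640 CPM, were below every RFP library. The log2 fold change was -0.51 (SE 0.15, adjusted p = 0.0109). In the 19 libraries it was -0.66 (adjusted p = 4.56e-08), with 345 to 465 CPM against 216 to 291 CPM and no overlap. With all 23 libraries it did not pass (adjusted p = 0.165).

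Fbxo45, which works with Mycbp2 in axon and synapse development, had 95.5 ± 12.4 CPM in RFP-expressing and 79.1 ± 14.0 CPM in CRE-expressing neurons (log2 fold change -0.29, SE 0.11, adjusted p = 0.0504), and passed in the 19 libraries (-0.28, adjusted p = 0.0102). Fbxo41, a neuronal member found at centrosomes, had -0.25 (SE 0.14, adjusted p = 0.188), and -0.32 (adjusted p = 0.00466) in the 19. Fbxl20, a receptor for the active zone protein RIM1, had 0.18 (SE 0.13, adjusted p = 0.317), and Fbxw8, the partner of Cul7, had 0.21 (SE 0.15, adjusted p = 0.312), and neither passed in the 19. Of the 10 general neuron markers 6 were called lower and 1 higher (7 lower and none higher in the 19 libraries), with a summed level of 6355 to 7695 CPM in RFP and 3161 to 6387 CPM in CRE libraries, and the part of this in the lower values of neuronal members was not tested.

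Of the 5 members tied to iron, redox and mitochondria, 2 fell, beside 13.8% of all genes. Fbxo7, which acts with Parkin in the clearance of mitochondria and is mutated in a familial parkinsonism, had 38.9 to 67.2 CPM (median 53.1) in RFP-expressing and 20.1 to 43.2 CPM (median 34.0) in CRE-expressing neurons. In 9 of 11 CRE libraries it was below every RFP library. The log2 fold change was -0.74 (SE 0.13, adjusted p = 9.51e-05), with -0.81, -0.61 and -0.72 in the 3 cultures. Of its exon bases 21.7% overlap exons of Syn3 on the opposite strand, and as the strand setting of the counting is not given in the sources used here, reads of the overlap could be shared.

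Fbxl17, which removes wrongly paired BTB proteins, had 36.7 to 59.9 CPM (median 44.7) in RFP-expressing and 30.4 to 44.0 CPM (median 34.9) in CRE-expressing neurons, with 7 of 11 CRE libraries below every RFP library. Its log2 fold change was -0.36 (SE 0.11, adjusted p = 0.0155), and with all 23 libraries it did not pass (adjusted p = 0.623). Fbxl5, the iron-sensing receptor for IRP2, had 0.29 (SE 0.19, adjusted p = 0.272), and 0.38 (adjusted p = 0.0161) in the 19 libraries, its lowest value of 9.51 CPM being that of CRE 1-3. Fbxo22, a receptor for BACH1, had -0.09 (SE 0.11, adjusted p = 0.57) and shares 54.9% of its exon bases with Nrg4 on the opposite strand. Fbxl4, a mitochondrial member that restrains mitophagy, had 0.02 (95% interval -0.48 to 0.52, adjusted p = 0.962).

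Fbxl21, a receptor for cryptochromes, the repressors of the circadian clock, had a higher level in CRE-expressing neurons. It had 10 counts in 10 CRE but only 5 RFP libraries and so met the rule for members through the group where it was higher, and its difference is given as a description. It was the lowest F-box gene per length, with 0.425 TPM in RFP-expressing neurons, and had 0.0708 to 2.45 CPM (median 0.658) there and 0.815 to 7.40 CPM (median 2.98) in CRE-expressing neurons. The groups overlapped, with 6 of 11 CRE libraries above every RFP library, and the lowest library of the RFP group held 1 count and that of the CRE group 6. The log2 fold change was 1.62 (SE 0.50), and its call (adjusted p = 0.0145) is among the 8 higher above.

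In the chromatin and transcription factor group Fbxl14 rose. It is a receptor for Snail-type factors, and had 26.5 to 44.4 CPM (median 38.0) in RFP-expressing and 35.6 to 98.7 CPM (median 49.2) in CRE-expressing neurons, the highest being CRE 1-3. Its log2 fold change was 0.49 (SE 0.15, adjusted p = 0.0134), and 0.36 (adjusted p = 0.013) in the 19 libraries, and 42.0% of its exon bases overlap Wnt5b on the opposite strand. Fbxl19, a CpG-binding member, had -0.31 (SE 0.17, adjusted p = 0.181), and -0.39 (adjusted p = 0.0137) in the 19. Fbxo11, a receptor for BCL6, had -0.25 (SE 0.18, adjusted p = 0.325) and its relative Fbxo10 had -0.07 (SE 0.15, adjusted p = 0.784). Fbxl15, which targets SMURF1, had 0.15 (95% interval -0.47 to 0.77, adjusted p = 0.755), and Fbxo3, linked to the turnover of Fbxl2, had -0.08 (95% interval -0.46 to 0.30, adjusted p = 0.788), so neither gene of the SMURF and TGF-β group was called.

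Outside these role groups 3 members were called, all higher. Fbxo33 had 16.7 to 41.4 CPM (median 29.2) in RFP-expressing and 24.3 to 63.1 CPM (median 42.5) in CRE-expressing neurons, with 7 of 11 CRE libraries above every RFP library, and a log2 fold change of 0.59 (SE 0.17, adjusted p = 0.00941). Fbxl7, linked to turnover of Aurora A kinase, had 3.31 to 12.5 CPM (median 5.44) and 6.02 to 17.8 CPM (median 11.6), with 5 of 11 CRE libraries above every RFP library, and a log2 fold change of 0.80 (SE 0.24, adjusted p = 0.0127). Fbxo42, a receptor linked to p53, had 52.4 to 70.8 CPM (median 59.3) and 59.5 to 113 CPM (median 73.0), and a log2 fold change of 0.33 (SE 0.12, adjusted p = 0.0405), and passed in 9 of 19 alternative fits.

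The libraries that stood apart held many of the extreme values of F-box genes. CRE 1-3 held the highest or the lowest CRE value for 41 of 53 members (25 highest, 16 lowest), and RFP 2-4 held that of the RFP group for 23 (15 highest, 8 lowest). The median coefficient of variation of a member was 31.8% over the CRE and 18.9% over the RFP libraries, and in the 19 libraries 18.8% and 18.4%. For all genes tested it was 34.6% and 23.6%, and in the 19 libraries 24.5% and 21.9%, so this spread was not particular to F-box genes. Without CRE 1-3 alone 23 members were called (11 higher, 12 lower), beside 38.0% of all genes.

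In the 19 libraries 24 members were called, 12 in each direction, beside 38.1% of all genes (19.4% higher, 18.7% lower). They held all 13 genes called before, with no change of sign, and 11 more, of which 4 were higher, among them Fbxl5, Fbxo8 and Fbxw17, and 7 lower (Fbxo31, Fbxo41, Fbxo45, Fbxl6, Fbxl19, Fbxw4, Fbxw5). Fbxw5 went from -0.27 (adjusted p = 0.21) to -0.42 (adjusted p = 0.000936) and Fbxl6 from -0.05 (adjusted p = 0.891) to -0.34 (adjusted p = 0.0377), and CRE 1-3 held the highest CRE value of both genes (208 and 92.9 CPM). The median GC content of exons was 57.0% for the 7 genes called lower in the 19 alone, 45.9% for the 12 called higher in the 19 and 49.8% for all members tested. When a GC trend was taken out of all 21 libraries instead, 22 members were called, 9 higher and 13 lower. Beside them, 37.3% of all genes were called in that fit, 17.7% higher and 19.5% lower. The split of 8 higher and 5 lower members thus differed between the fits, as did the split of all genes.

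**Figure D4:**
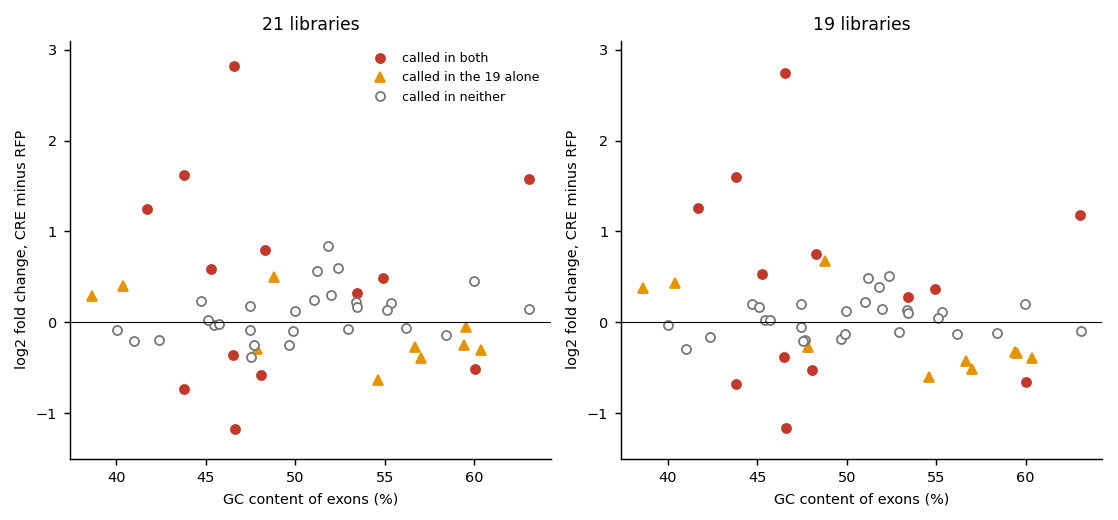
Log2 fold change (CRE minus RFP) of 51 of the 52 F-box genes tested against the GC content of their exons in percent, in the 21 and in the 19 libraries. GC-rich genes such as Fbxl6 and Fbxw5 lie lower in the 19 libraries, at -0.34 and -0.42, than in the 21, at -0.05 and -0.27.

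Related members were compared with each other within libraries, as the log2 ratio of their counts (pseudocount 0.5), by a two-sided permutation test of the difference between groups with 100000 resamples, adjusted over the 10 pairs tested of 12 listed. The counts of the closest relatives Fbxo25 and Fbxo32 came closer together, as Fbxo32 rose towards Fbxo25. Their log2 ratio was 3.36 to 5.76 in RFP and 0.94 to 2.7 in CRE libraries, with no overlap (difference -2.78, p = 2e-05, the smallest that these resamples can give, adjusted p = 6.67e-05 by permutation). Fbxo2 against Fbxo6 went from 2.50 ± 0.34 (n = 10) to 3.92 ± 0.72 (n = 11) in the same permutation test (adjusted p = 6.67e-05), and Fbxo2 against Fbxo44 from -0.01 ± 0.24 to 1.10 ± 0.70 (permutation, adjusted p = 0.0008), while Fbxo6 against Fbxo44 differed by -0.31 (permutation, adjusted p = 0.136). Fbxl14 against Fbxl16 rose by 1.04 without overlap (permutation, adjusted p = 6.67e-05). The pairs were chosen with earlier results of these data known, and those that hold a called gene carry the same difference as that gene.

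The other pairs did not pass. The log2 ratio of Fbxw11 to Btrc, the pair of β-TrCP proteins, differed by -0.20 (adjusted p = 0.281, permutation), that of Fbxl2 to Fbxl20 by -0.25 (adjusted p = 0.281, permutation), that of Fbxw2 to Fbxw9 by -0.35 (adjusted p = 0.223, permutation) and that of Fbxo10 to Fbxo11 by 0.27 (adjusted p = 0.58, permutation).

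**Figure D5:**
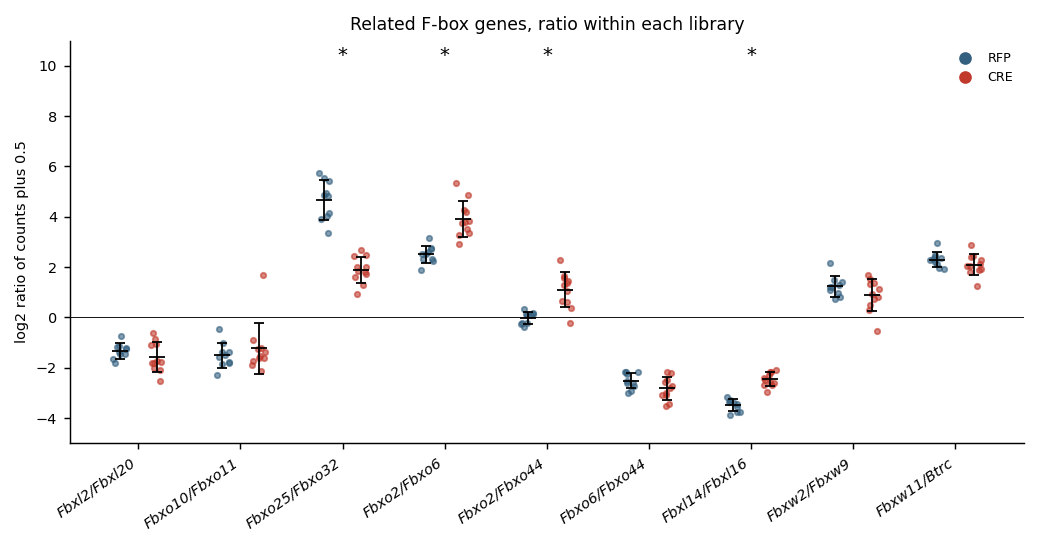
Log2 ratio of counts (pseudocount 0.5) of 9 pairs of related F-box genes in each RFP and CRE library; a star marks an adjusted permutation p under 0.05. The Fbxo25 to Fbxo32 ratios lie at 3.36 to 5.76 in RFP and at 0.94 to 2.7 in CRE libraries, while those of Fbxw11 to Btrc overlap.

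Of the SCF core, 1 of 4 genes was called. Rbx1, the RING subunit, had 93.6 ± 7.34 CPM in RFP-expressing and 65.6 ± 16.5 CPM in CRE-expressing neurons, and fell by 0.53 on the log2 scale (SE 0.13, adjusted p = 0.00345). Skp1 (-0.20, SE 0.21, adjusted p = 0.505), Cul1 (-0.06, SE 0.14, adjusted p = 0.774) and Cul7 (0.42, SE 0.18, adjusted p = 0.0794) were not called. Of 7 tested F-box genes with other symbols, Kdm2a, a histone demethylase, was called higher (0.29, adjusted p = 0.00924) and Lmo7 was called lower (-0.85, adjusted p = 0.000182), while Skp2, the receptor for p27 (-0.07, SE 0.24, adjusted p = 0.872), and Btrc (0.17, SE 0.12, adjusted p = 0.309) were not called. Of 16 genes of SCF assembly and ubiquitin transfer 3 were called, all higher: the exchange factor Cand2 (0.50, adjusted p = 0.0327) and the ubiquitin-conjugating enzymes Cdc34 (0.48, adjusted p = 0.0393) and Ube2r2 (0.26, adjusted p = 0.0447). Of these calls Rbx1 and Lmo7 passed in all 19 alternative fits, Cand2 and Cdc34 in 12, Kdm2a in 11 and Ube2r2 in 10. Those of Cand2 and Cdc34 were lost, among other fits, without CRE 1-3 alone.

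The mRNAs of 28 tested genes whose proteins are known substrates of F-box proteins held 9 called higher and 1 called lower, beside 16.4% and 13.8% of all genes, with a median log2 fold change of 0.25 beside 0.02 for all genes. In the 19 libraries 9 were called higher and 4 lower, with a median of 0.19. Cdkn1a, the cell cycle inhibitor p21, rose from 41.4 ± 8.23 CPM to 120 ± 26.8 CPM (log2 fold change 1.52, adjusted p = 8.02e-09), Ccnd1, cyclin D1, from 148 ± 26.0 CPM to 470 ± 158 CPM (1.65, adjusted p = 2.27e-07), and Bach1, a haem-sensing repressor, from 39.1 ± 10.3 CPM to 80.4 ± 15.3 CPM (1.02, adjusted p = 2.45e-06). Rims1, which encodes the active zone protein RIM1, fell from 134 ± 13.8 CPM to 82.3 ± 15.6 CPM (-0.72, adjusted p = 1.87e-05). These are mRNA levels, and protein was not measured in these libraries. In the 19 libraries the counts called were 1, 2 and 5 for the other lists, in the order given.

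Markers of other cells were present in both groups. Of 8 astrocyte markers 4 were called lower and 1 higher, with summed levels of 3602 to 7822 CPM in RFP and 1552 to 5109 CPM in CRE libraries, and of 8 oligodendrocyte lineage markers 5 were called lower (645 to 1862 and 423 to 1904 CPM, 6 lower in the 19 libraries). Of 8 GABA neuron markers 3 were called higher and 1 lower (1017 to 2165 and 800 to 1660 CPM), while in the 19 libraries 1 was called higher and 2 lower. Microglia markers summed to at most 6.62 CPM in RFP and 7.67 CPM in CRE libraries, where 1 of 2 tested was called higher, and endothelial and mesenchymal markers to 17.6 to 145 and 16.4 to 385 CPM, where 1 of 7 tested was called higher and 1 lower. The part of these shifts in the levels of F-box genes was not tested.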

How the data were processed

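RNA was sequenced as 23 stranded mRNA libraries. The deposited files hold whole-number read counts per gene for each library, made by the authors, per the labels, with bcl2fastq 2.20.0.422, STAR 2.7.8a and featureCounts 1.5.0-p1 on GRCm39 with Ensembl 110; the strand setting and the treatment of multimapping reads are not given in the sources used here. Genes were named and measured (exon length, GC, overlaps, promoter windows) from GENCODE M39.

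Counts were fitted with edgeR 4.0.16 (filterByExpr, TMM, robust quasi-likelihood fit) in R 4.3.3 on 21 libraries, and p-values were adjusted by Benjamini-Hochberg over all genes tested. The study's methods name CRE 1-3 and CRE 3-3 as removed, and that set was an alternative, as were DESeq2 1.42.0 and limma-voom 3.58.1. The code was tested on simulated counts. Ratios were tested by permutation. The members and gene lists were chosen with earlier results of these data known. Named are every called member, every member of the role lists but one, which is not reported here and not drawn, Skp1, Cul1, Rbx1, Skp2, Btrc, Nedd8 and, in the other lists, up to 4 called genes by smallest p. Whether libraries of one culture number are separate dishes is not stated, so p-values measure the spread between these libraries, which may be technical. No 2 libraries of a group agreed within sampling noise. Protein sequences were not used here.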

Additional observations from a re-analysis of the deposited data

Results flagged for a closer look

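Among the 67 genes looked at in the 10 RFP libraries, 10 had a library whose gap to the nearest other library exceeded Dixon's 95% critical value, and a gap of this size arises by chance in about 5% of groups. In 6 of the 10 the library was RFP 2-4, which also has a low mitochondrial share and a GC trend. In RFP 2-4 Fbxl19 was at 136 CPM (the others at 79.5 to 110), Fbxo21 at 201 CPM (148 to 168), Fbxo31 at 159 CPM (91.7 to 122), Fbxo44 at 86.6 CPM (54.2 to 68.1) and Fbxo6 at 19.4 CPM (8.13 to 13.0), all above the other libraries, and Fbxo11 was at 98.5 CPM, below the others (138 to 174). In other libraries, Fbxl20 was at 79.6 CPM in RFP 2-3 (53.2 to 67.3), Fbxl5 at 46.9 CPM in RFP 3-3 (22.6 to 35.1), Fbxo4 at 9.40 CPM in RFP 1-2 (1.43 to 5.13) and Bach1 at 65.6 CPM in RFP 3-4 (30.2 to 43.4). None of these genes was called among the F-box genes in the 21 libraries, and Bach1 was called higher there and in all 19 alternatives. What sets these libraries apart was not tested.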

How the results depend on the processing

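The 13 called F-box genes kept their direction in all 19 alternatives, and Fbxo32, Fbxo7, Fbxw7 and Fbxo30 passed in each. Fbxo2 was lost only with counts summed per culture (adjusted p = 0.055), and Fbxo42 was lost in 10. Fbxl17 was lost in 6, among them the fits without culture 1, 2 or 3, and Fbxl14 in 4. Fbxl16 and Fbxo5 were each lost in 3, and Fbxo33, Fbxl7 and Fbxl21 each in 2. The number of F-box genes called went from 13 to 24 in the 19 libraries, 23 there with culture as replicate block, 22 without CRE 1-3 and CRE 3-3, 23 without CRE 1-3, 22 with the GC trend removed and 22 with that and the culture block, while without one culture it was 5 to 12, the lowest without culture 2. In the fits with 22 to 24 called, these were 42.3% to 46.2% of the F-box genes tested, beside 37.3% to 39.1% of all genes. The main fit had 25.0% and 30.2%. Without one culture the shares were 9.43% to 23.5% of the F-box genes and 14.3% to 25.9% of all genes. All genes called went from 4370 to 2114 to 3730 without one culture. With no filter on low counts 6920 were called of 32701 tested, so the share called went from 30.2% to 21.2%. Pathway genes called went from 16 to 9 with culture and library number as replicate block, and to 9 to 13 without one culture. Of the 10 ratios 5 passed, and 4 to 5 without one culture. The culture number as replicate block gave 12 F-box genes and 4267 genes in all, and culture and library number gave 9 and 3152. The mean deviations of the CRE and of the RFP libraries with the same culture number hardly correlated (0.024, 0.020 and 0.145). The numbers are therefore not treated as pairs across groups. Whether libraries of a culture deviate together within a group was not tested by this. The sign of log2 values that passed in neither setting turned without CRE 1-3 and CRE 3-3 (Cul1 0.038, Fbxl15 -0.11, Fbxo28 0.056, Fbxo3 0.024, Fbxw11 0.060, Skp2 0.051, Fbxo10/Fbxo11 -0.011), in the 19 libraries (Cul1 0.0091, Fbxl15 -0.10, Fbxo28 0.022, Fbxw11 0.023, Skp2 0.025), without CRE 1-3 (Cul1 0.014, Fbxl15 -0.18, Fbxo28 0.038, Fbxo3 0.019, Fbxw11 0.016, Skp2 0.035), by limma-voom (Fbxl15 -0.11), with culture and library number as replicate block (Fbxl15 -0.12, Fbxl4 -0.16, Fbxo4 0.16), with counts summed per culture (Fbxl15 -0.017), with culture as replicate block in the 19 libraries (Fbxl15 -0.10, Fbxo28 0.018, Fbxw11 0.019, Skp2 0.032), without culture 1 (Fbxl18 -0.014, Fbxl2 0.0084, Fbxo28 0.017, Fbxo3 0.045), with all 23 libraries (Fbxl4 -0.093, Fbxl6 0.072, Fbxo10 0.0087, Fbxo21 0.035, Fbxo28 0.033, Skp2 0.36), without culture 2 (Fbxl4 -0.042, Fbxl6 0.089, Fbxo10 0.22, Fbxo21 0.0040, Fbxo6 0.072, Skp2 0.037), without culture 3 (Fbxl4 -0.16, Fbxl6 0.054, Fbxo28 0.015, Fbxw11 0.015, Fbxw9 -0.00010), with the GC trend removed (Fbxl4 -0.016, Fbxo4 0.095), with the culture as replicate block and the GC trend removed (Fbxl4 -0.026, Fbxo4 0.044) and without RFP 2-4 (Fbxo10 0.0083, Fbxo6 0.0046). The cause was not tested. The sets without CRE 1-3 or RFP 2-4 alone and the block in the 19 libraries were chosen after seeing the data. Among the called members depth limits Fbxl21 most, with 1 count in its lowest RFP library.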
